A study of Mus musculus with 13 samples.

Results

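The genes described are 10 that lie downstream of the kinase ERK: Dusp6, Spry1, Spry2, Spry4, Spred1, Spred2, Etv4, Etv5, Egr1 and Phlda1. They were taken by name, and all 10 were among the 12393 genes measured. A probe set is a group of array probes for 1 transcript, and each gene was read from its brightest one. The 10 genes had 16 probe sets in all, 1 for each of 5 genes and several for the other 5.

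Total RNA of mouse duodenum was hybridised to 13 Affymetrix arrays, 5 from wild-type mice and 8 from mutant mice that the labels call ViRas. The mice, of mixed strain background, were put on a diet after 5 weeks of age and were killed after 22 weeks on it. Normal diet was given to 2 wild-type and 3 mutant samples. High-fat diet was given to 2 of each genotype, and butyrate was added to it for 1 wild-type and 3 mutant samples. The labels do not state the promoter or the cells that carry the mutation. Nothing beyond the word mice says that the arrays of a group come from separate animals, so a p-value here measures only how far these samples scatter, which may be technical. Array identifiers of each diet run in a number range of their own, and the labels do not say what these numbers mark, so diet and whatever they mark cannot be told apart.

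Ras proteins are small GTPases that, when bound to GTP, start the kinase cascade from RAF through MEK to ERK. Active ERK moves to the nucleus and phosphorylates transcription factors of the ETS family, which raises transcription of growth genes and also of inhibitors of the cascade. These inhibitors act at several steps. Dusp6 encodes a phosphatase that removes phosphate from ERK, the Sprouty proteins (Spry1, Spry2, Spry4) act between growth factor receptors and RAF, and the Spred proteins bring the Ras inactivator neurofibromin to the membrane. Levels of such feedback genes are widely used as a readout of ERK output, while in the intestine ERK activity is normally highest in the crypts, where epithelial cells divide.

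Values are RMA levels on a log2 scale, so that a difference of 1 is a 2.00-fold change, and array medians lay between 6.04 and 6.14. The 11 measured enterocyte markers, which define the absorptive lining of the duodenum, had a mean level of 12.23 to 12.50 on wild-type and 11.91 to 12.37 on mutant arrays. The 14 measured acinar pancreas markers, from a tissue that lies beside the duodenum, had a mean that ran from 7.19 to 13.25 on wild-type and from 6.28 to 13.33 on mutant arrays. Macrophage and Paneth cell markers were lower on many mutant arrays, as given beside the results below. In whole tissue, fewer cells of a type and less RNA per cell cannot be told apart. Precision is limited by how few arrays there are.

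Mutant duodenum had higher levels of Spred2, Etv5, Etv4 and Spred1 on normal and high-fat diet, by 1.39-fold to 1.72-fold. In the limma model of the 9 arrays without butyrate, with diet as a term, 4 of 10 genes passed the threshold, an adjusted p under 0.05 over all 12393 genes. All 4 were higher in mutants. Of all genes 4.63% passed in either direction and 2.24% passed as higher. In the model of all 13 arrays 2 of 10 passed, Etv4 and Spred2, both higher, against 1.02% of all genes in either direction and 0.428% as higher. The median difference of the 10 genes was 0.56 in 9 arrays and 0.44 in 13 arrays, where the median of all genes was 0.0121 and 0.005. In 9 arrays 1 gene passed, Spred2, without wild-type high-fat array 1 or 2, mutant high-fat array 1 or mutant normal diet array 1 or 2. Spred2 passed with Etv4 without mutant high-fat array 2 and with Etv5 without mutant normal diet array 3. It passed with Spry1 and Etv4 without wild-type normal diet array 1, and with Dusp6 and Spry2 without wild-type normal diet array 2. In 13 arrays 0 of the 10 passed without any one of the 9 arrays on normal or high-fat diet, where between 2 and 4 of all genes passed, and 3 passed without the wild-type butyrate array, where 291 of all genes did. Without mutant butyrate array 1, 2 or 3 the count stayed at 2, where 329, 138 and 270 of all genes passed, against 127 with every array. In 9 arrays between 265 and 582 of all genes passed with 1 array left out, against 574 with every array. Earlier results of these data were known when the genes were chosen, so these counts are not independent evidence of a direction.

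**Figure D1:**
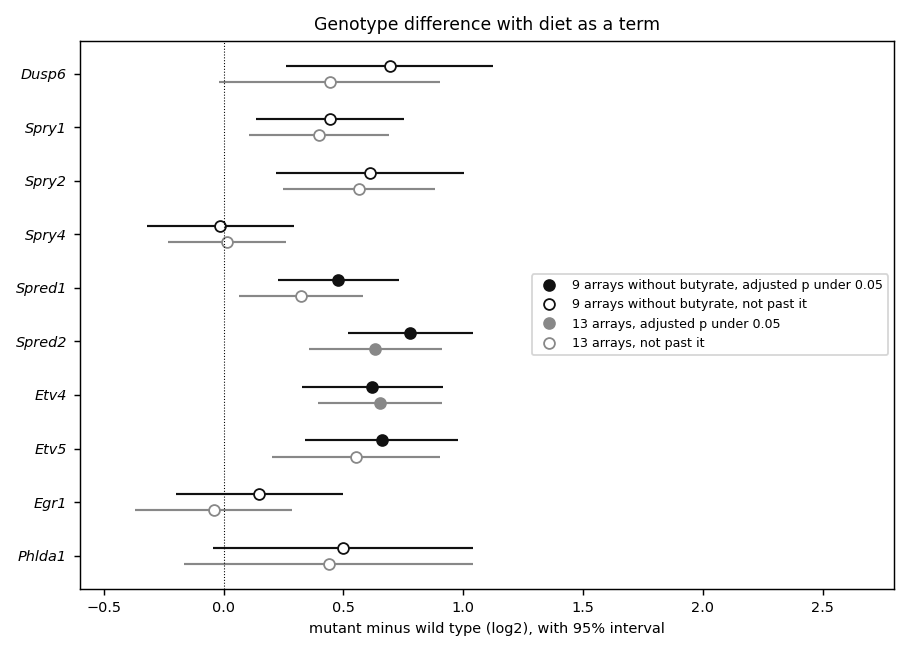
Difference between mutant and wild-type arrays in log2 units (x axis) for the 10 genes (y axis), from the model of 9 arrays without butyrate (black) and of 13 arrays (grey), each with diet as a term. Bars are 95% intervals and filled points have an adjusted p under 0.05; 4 genes are filled in the 9 arrays and 2 in the 13, while Spry4 and Egr1 lie near 0.

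Spred2 was the member with the largest difference in 9 arrays. On normal diet its level was 7.44 and 7.66 on the wild-type arrays and 8.18, 8.28 and 7.95 on the mutant arrays. Under high-fat feeding the levels were 7.66 and 7.94 in wild type and 8.80 and 8.83 in mutants. The groups did not overlap on either diet, and the mutants on high-fat diet were the highest of all 13 arrays. In 9 arrays the difference was 0.78 ± 0.12 (SE; 1.72-fold, limma adjusted p = 0.00689), with higher values on 5 of 5 mutant arrays than the wild-type mean of their diet. It passed in each of the 9 fits that left out 1 array, with differences of 0.69 to 0.88. In 13 arrays it was 0.63 ± 0.13 (adjusted p = 0.046). With both Spred2 probe sets averaged, the difference in 9 arrays was 0.37 and did not pass (limma adjusted p = 0.0998).

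A second, dimmer probe set of Spred2, with a mean of 5.20 against 8.01, did not show this difference. It gave -0.03 ± 0.15 in 9 arrays (limma adjusted p = 0.948). On it the difference was -0.31 ± 0.17 on normal and 0.31 ± 0.18 on high-fat diet, so that the probe sets disagreed in direction on normal diet.

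Spred1, the other Spred gene described here, was 6.05 and 5.77 in wild type and 6.34, 6.31 and 6.70 in mutants on normal diet. Under high-fat feeding it was 6.17 and 5.98 in wild type and 6.53 and 6.42 in mutants. Mutant arrays lay above wild-type arrays on both diets. The difference was 0.48 ± 0.11 in 9 arrays (1.39-fold, limma adjusted p = 0.0421), and it passed in 0 of the 9 fits that left out an array, with adjusted p of 0.0535 to 0.104. A second Spred1 probe set of nearly the same mean level, 6.19 against 6.20, gave 0.59 ± 0.11 (adjusted p = 0.0184), and a dimmer one of mean 4.18 gave 0.33 ± 0.11 (adjusted p = 0.115).

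Because these genes were higher together, the 250 bases before their transcription starts were searched for 2 short ETS cores, CCGGAA and CAGGAA, on both strands. RefSeq (GRCm38.p6) promoter windows were matched for 6 of the 10 genes, 7 windows in all because Etv5 has 2. CAGGAA was found before 3 genes, Spry2, Spred1 and Etv5, and CCGGAA before 0. Among all 32851 windows of this length 25.7% held CAGGAA, 12% held CCGGAA and 35.1% held either. By window, 3 of 7 held CAGGAA, and the window of the first Etv5 start held neither core. The windows of Spred2, Spred1 and the second Etv5 start are shown, since these genes passed the test, the second Etv5 start because it holds a core, with the core in capitals where there is one (on the minus strand it reads TTCCTG). The Spred2 window is at chr11:19924192-19924441 (plus strand), that of Spred1 at chr2:117120821-117121070 (plus strand) and that of Etv5 at chr16:22438369-22438618 (minus strand).
Spred2: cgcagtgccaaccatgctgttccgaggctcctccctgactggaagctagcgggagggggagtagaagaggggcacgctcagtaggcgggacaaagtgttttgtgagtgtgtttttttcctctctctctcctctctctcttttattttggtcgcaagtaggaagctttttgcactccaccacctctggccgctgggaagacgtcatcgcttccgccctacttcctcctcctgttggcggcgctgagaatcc
Spred1: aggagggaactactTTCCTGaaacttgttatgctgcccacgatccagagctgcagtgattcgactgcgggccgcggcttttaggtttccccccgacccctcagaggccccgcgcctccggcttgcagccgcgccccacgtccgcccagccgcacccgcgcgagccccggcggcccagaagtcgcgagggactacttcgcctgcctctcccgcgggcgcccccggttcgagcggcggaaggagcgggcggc
Etv5: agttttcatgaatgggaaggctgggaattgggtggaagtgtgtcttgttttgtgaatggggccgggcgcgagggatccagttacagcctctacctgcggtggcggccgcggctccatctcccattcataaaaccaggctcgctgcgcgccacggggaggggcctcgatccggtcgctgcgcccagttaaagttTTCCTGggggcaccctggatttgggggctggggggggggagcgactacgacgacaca
The core ended 231 bases before the start of Spred1 and 52 bases before the second start of Etv5. The AP-1 motif TGANTCA, held by 6.75% of all windows, the CRE TGACGTCA (1.55%) and the CArG box (1.47%) were found before 0 of the 6 genes. No 2 matches overlapped. A match is a description of these letters, and a window without one shows only that the letters are not in it.

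Etv4 and Etv5 encode ETS transcription factors of the PEA3 group. Etv4 was 5.93 and 5.54 in wild type and 6.23, 6.42 and 6.4997 in mutants on normal diet. On high-fat diet it was 5.78 and 5.65 in wild type and 6.57 and 6.05 in mutants. With butyrate it was 5.11 on the wild-type array and 5.68, 6.18 and 5.71 on the mutant arrays, so all 8 mutant arrays lay above the wild-type arrays of their diet. The difference was 0.65 ± 0.12 in 13 arrays (1.57-fold, limma adjusted p = 0.0404) and 0.62 ± 0.13 in 9 arrays (adjusted p = 0.0287). It passed in 4 of the 13 and 2 of the 9 fits that left out an array, with adjusted p up to 0.0904 and 0.0715. With the replicate number as a block it did not pass in either model (limma adjusted p = 0.0756 and 0.0659).

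Etv5 was dim, at the 17.6th percentile of gene levels. On normal diet it was 3.79 and 3.75 in wild type and 4.53, 4.69 and 3.95 in mutants. With the high-fat diet it was 4.07 and 3.83 in wild type and 4.62 and 4.70 in mutants. The groups did not overlap, although mutant array 3 on normal diet lay close to wild type. The difference in 9 arrays was 0.66 ± 0.14 (1.58-fold, limma adjusted p = 0.0313), and it passed in 1 of the 9 fits that left out an array, with adjusted p up to 0.0859. A dimmer probe set of mean 3.36 gave 0.38 ± 0.10 (adjusted p = 0.0652).

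**Figure D2:**
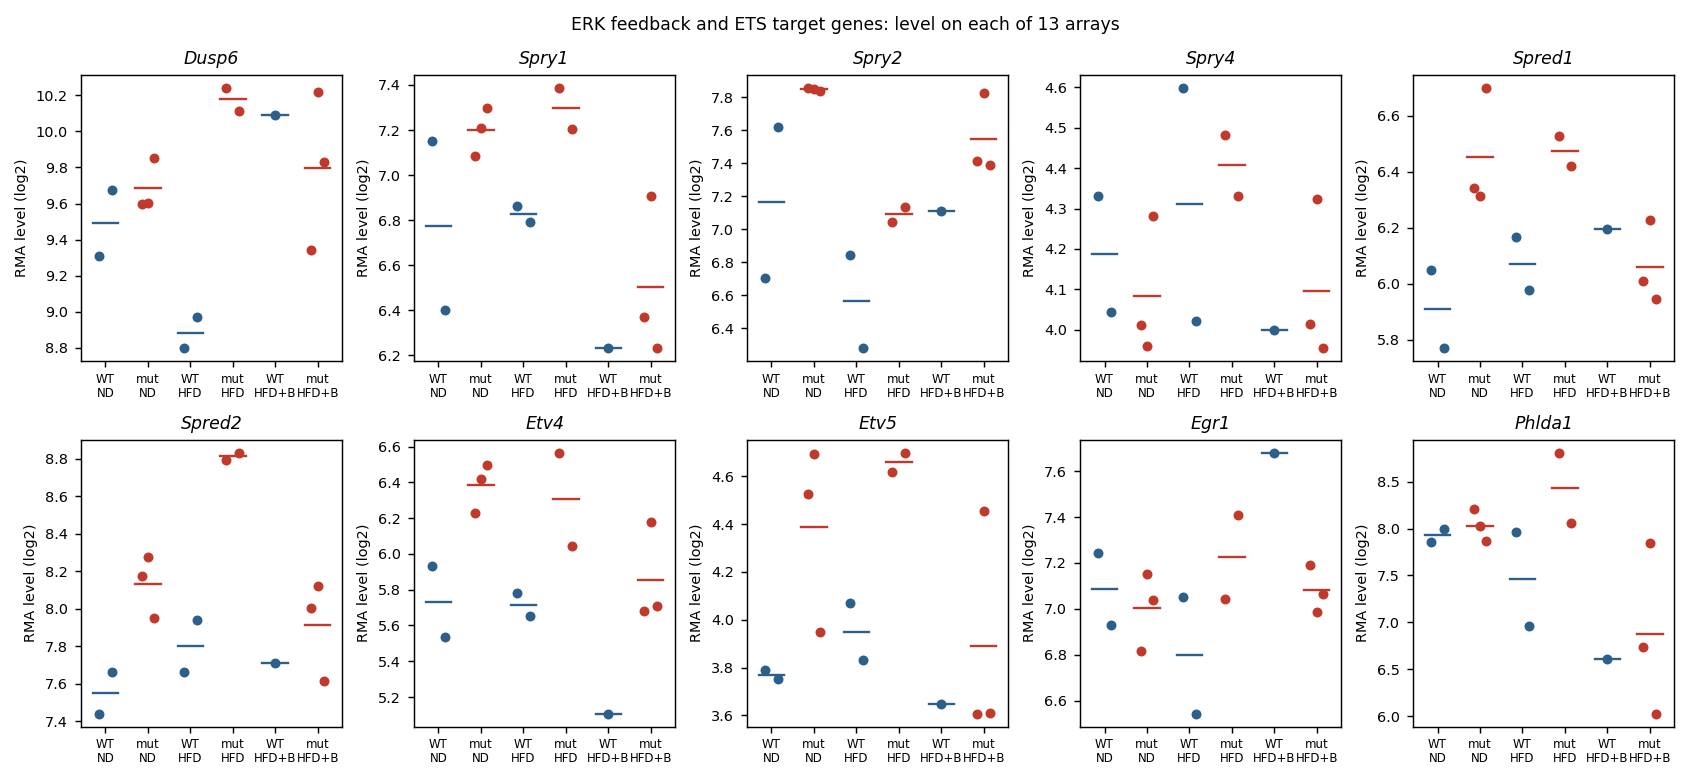
RMA level in log2 units (y axis) of the 10 genes on each of the 13 arrays, in 6 groups (x axis) of wild-type (WT, blue) and mutant (mut, red) mice on normal diet (ND), high-fat diet (HFD) and high-fat diet with butyrate (HFD+B). Points are arrays and lines are group means; each panel has its own scale, and Spred2 shows the mutants on high-fat diet at 8.80 and 8.83, above all other arrays.

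The other feedback inhibitors did not pass in either model. Spry2, which binds regulators of receptor signalling, was 6.70 and 7.62 in wild type and 7.86, 7.85 and 7.83 in mutants on normal diet. On high-fat diet it was 6.85 and 6.28 against 7.05 and 7.13. Its mutant arrays lay above wild type on both diets, and the wild-type arrays were far apart. The difference was 0.61 ± 0.18 in 9 arrays (limma adjusted p = 0.0806) and 0.57 ± 0.15 in 13 arrays (adjusted p = 0.0785).

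Spry1 was 7.15 and 6.40 in wild type and 7.09, 7.21 and 7.30 in mutants on normal diet, which overlapped. Under high-fat feeding its levels were 6.86 and 6.79 in wild type and 7.39 and 7.20 in mutants, which did not overlap. Its difference was 0.44 ± 0.14 in 9 arrays (limma adjusted p = 0.105). Spry4 was dim on both of its probe sets (means 4.18 and 3.89). On the brighter one the groups overlapped on both diets and differed by -0.01 ± 0.14 in 9 arrays (95% interval -0.32 to 0.29). On the other one, high-fat levels were 3.74 and 3.78 in wild type and 4.14 and 4.15 in mutants, without overlap, and the difference there, 0.38 ± 0.11, did not pass (limma adjusted p = 0.248).

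Dusp6, the ERK phosphatase, was the brightest member, at the 89.4th percentile of gene levels. On normal diet it was 9.31 and 9.67 in wild type and 9.60, 9.60 and 9.85 in mutants, which overlapped. On high-fat diet it was 8.80 and 8.97 in wild type and 10.24 and 10.11 in mutants, the widest difference of means of any member within a diet. The difference was 0.20 ± 0.21 on normal and 1.29 ± 0.23 on high-fat diet (2.45-fold, limma adjusted p = 0.102). The genotype difference on high-fat diet minus that on normal diet was 1.098 ± 0.31 (95% interval 0.41 to 1.78). It did not pass over all genes (limma adjusted p = 0.915). Over 9 arrays the difference was 0.69 ± 0.20 (adjusted p = 0.0742).

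Egr1, an immediate early transcription factor, and Phlda1, a pleckstrin homology-like protein induced by growth factors, did not pass either. Egr1 was 7.24 and 6.93 in wild type and 6.82, 7.15 and 7.04 in mutants on normal diet, and 7.05 and 6.54 against 7.04 and 7.41 on high-fat diet. The groups overlapped on both diets, and the difference was 0.15 ± 0.16 in 9 arrays (95% interval -0.20 to 0.50) and -0.04 ± 0.15 in 13. Phlda1 was 7.96 and 6.96 in wild type and 8.81 and 8.06 in mutants on high-fat diet, and 7.86 and 7.99 against 8.20, 8.02 and 7.87 on normal diet. It differed by 0.50 ± 0.24 in 9 arrays (limma adjusted p = 0.3195).

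Every mutant array lay above every wild-type array for 5 of 10 genes on normal diet, Spry2, Spred1, Spred2, Etv4 and Etv5, where 16.7% of all genes did so. On high-fat diet this held for 8 of 10, all but Spry4 and Egr1, against 24.2% of all genes. On both diets it held for the same 5 genes as on normal diet, against 7.46% of all genes. Tested within a diet by limma, 0 of 10 passed on normal and 0 on high-fat diet, where 0.0242% and 0.0403% of all genes passed. On each of these diets 5 of 10 genes had an unadjusted p under 0.05, as did 12.7% and 11.3% of all genes. The closest to the threshold on high-fat diet were Spred2 (1.01 ± 0.18, adjusted p = 0.1) and Dusp6. The count on high-fat diet was 1 without mutant butyrate array 1 (Dusp6) or 3 (Spred2), where 5 and 12 of all genes passed. It was 2 without mutant butyrate array 2 (Dusp6 and Spred2), where 105 of all genes passed, against 5 with every array. Leaving out a butyrate array changes only the pooled spread here. The count was 1 with array weights (Dusp6, 14 of all genes) or with the replicate number as a block (Spred2, 5 of all genes). On normal diet the count was 1, Spry2, without wild-type array 2, where 174 of all genes passed, against 3 with every array.

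**Figure D3:**
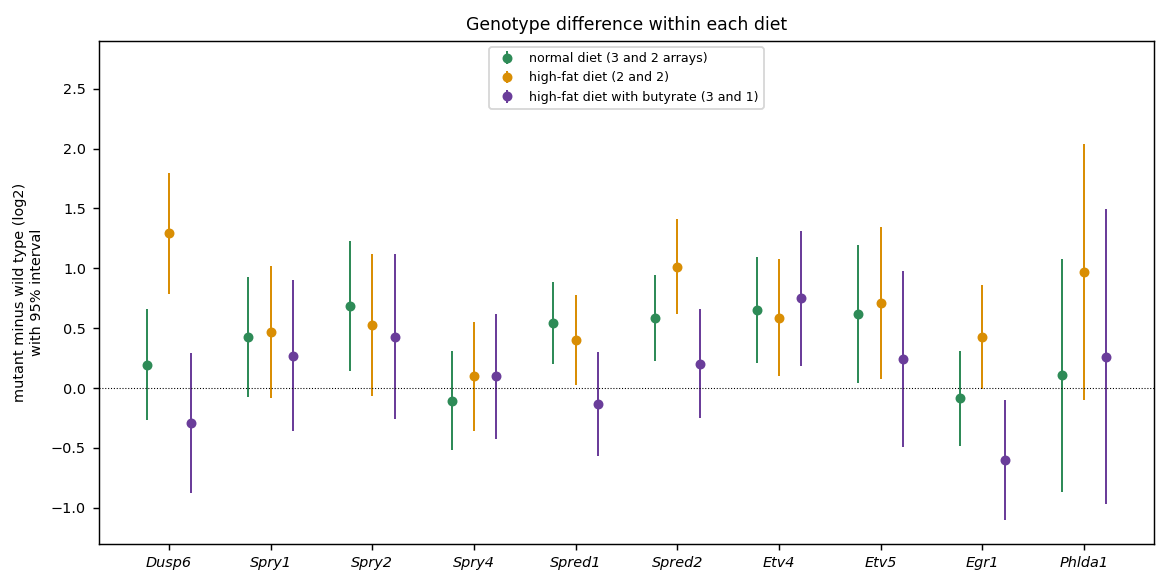
Difference between mutant and wild-type arrays in log2 units (y axis) for the 10 genes (x axis) on normal diet (green), high-fat diet (orange) and high-fat diet with butyrate (purple), with 95% intervals from the model of 6 group means. Dusp6 goes from 0.20 on normal diet to 1.29 on high-fat diet and -0.29 with butyrate, where the wild type is 1 array, while Etv4 stays between 0.59 and 0.75.

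With butyrate the wild type is a single array, which the model takes to vary like the other groups. There 0 of 10 genes and 0% of all genes passed by limma. Among the 10 the widest differences were those of Etv4 (0.75 ± 0.26) and Egr1 (-0.60 ± 0.23). The median difference of the 10 genes was 0.22, against -0.02 over all genes. Etv4, Spry1 and Spry2 lay above the wild-type array on 3 of 3 mutant arrays, Spred2, Spry4 and Phlda1 on 2, Dusp6, Spred1 and Etv5 on 1, and Egr1 on 0. Spry1 exceeded the wild-type array by only 0.0018 on mutant array 3, and Spry4 by 0.0152 on mutant array 1. Etv4 exceeded the wild-type array by 0.57 to 1.07. The share of all genes above it on 3 of 3 was not counted. By array, 6, 9 and 3 of the 10 genes lay above it on mutant arrays 1, 2 and 3. Of all genes 43%, 46.6% and 49.6% did so. The genotype difference with butyrate, set against the mean of the other 2 diets, passed for 0 of 10 genes (0.00807% of all genes passed). The widest gaps were those of Dusp6 (-1.04 ± 0.31, limma adjusted p = 0.644), Egr1 (-0.77 ± 0.26), Spred1 (-0.61 ± 0.23) and Spred2 (-0.60 ± 0.24). These 4 of 10 had an unadjusted p under 0.05, as did 7.08% of all genes. The same comparison between high-fat and normal diet also passed for 0 of 10 (0.00807% of all genes). An unadjusted p under 0.05 was found there for 1 of 10, Dusp6, and for 5.01% of all genes.

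The 3 mutant arrays on butyrate differed among themselves. Etv5 was 3.61, 4.46 and 3.61 on mutant arrays 1, 2 and 3, and 3.65 on the wild-type array. Phlda1 was 6.74, 7.85 and 6.03 on the mutant arrays and 6.61 on the wild-type array. For both genes mutant array 2 was apart from the other 2, which lay closer to the wild-type array. It was the highest of the 3 for 9 of 10 genes and the lowest for Egr1, while it was the highest for 32.9% of all genes. The median distance of the 10 genes from the wild-type array was 0.54 on array 2, 0.07 on array 1 and -0.07 on array 3. On the normal diet and high-fat diet mutant arrays the same median, from the wild-type mean of the diet, ran from 0.37 to 0.62.

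Marker lists of other cells moved on the same arrays. Paneth cell markers (5 genes) had a mean of 8.49 on mutant butyrate array 2, against 10.71 and 9.77 on arrays 1 and 3 and 10.18 on the wild-type array. Macrophage markers (10 genes) had a mean of 7.12 on array 2, against 7.54 and 7.64 on arrays 1 and 3 and 7.68 on the wild-type array. Acinar pancreas markers had a mean of 11.14 on array 2, against 7.46 and 6.43 on arrays 1 and 3 and 12.09 on the wild-type array. Over all diets the Paneth mean ran from 8.11 to 10.71 on mutant and from 10.18 to 11.83 on wild-type arrays. The macrophage mean ran from 6.53 to 7.64 on mutant and from 7.53 to 7.85 on wild-type arrays. On high-fat diet the pancreas mean was 11.53 and 13.25 in wild type and 10.92 and 6.28 in mutants. In 9 arrays 4 of 5 Paneth cell and 7 of 10 macrophage markers fell by limma, and 2 of 7 crypt stem cell markers, Lgr5 and Ascl2, fell as well (-1.14 ± 0.13 for Lgr5), where 296 of all 12393 genes fell. In 13 arrays 0 of 5 Paneth cell, 3 of 10 macrophage and 1 of 7 crypt markers fell, where 74 of all genes did. Of T cell markers 4 of 9 fell, of enterocyte markers 2 of 11, of fibroblast markers 1 of 10 and of B and plasma cell markers 1 of 6 in 9 arrays. In 13 arrays 1 of the 10 fibroblast markers fell and 0 of the T cell, enterocyte and B and plasma cell markers. The part of Paneth cells, macrophages and the other immune cells in the levels of the 10 genes was not tested. With the pancreas mean as a covariate, Spred2, Etv4 and Etv5 passed in 9 arrays and Spry2, Spred2 and Etv4 in 13. Of smooth muscle (10), endothelium (10), goblet cell (6), enteroendocrine (7), enteric glia and neuron (6), Brunner gland (3) and acinar pancreas (14) markers 0 passed in 9 or 13 arrays.

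**Figure D4:**
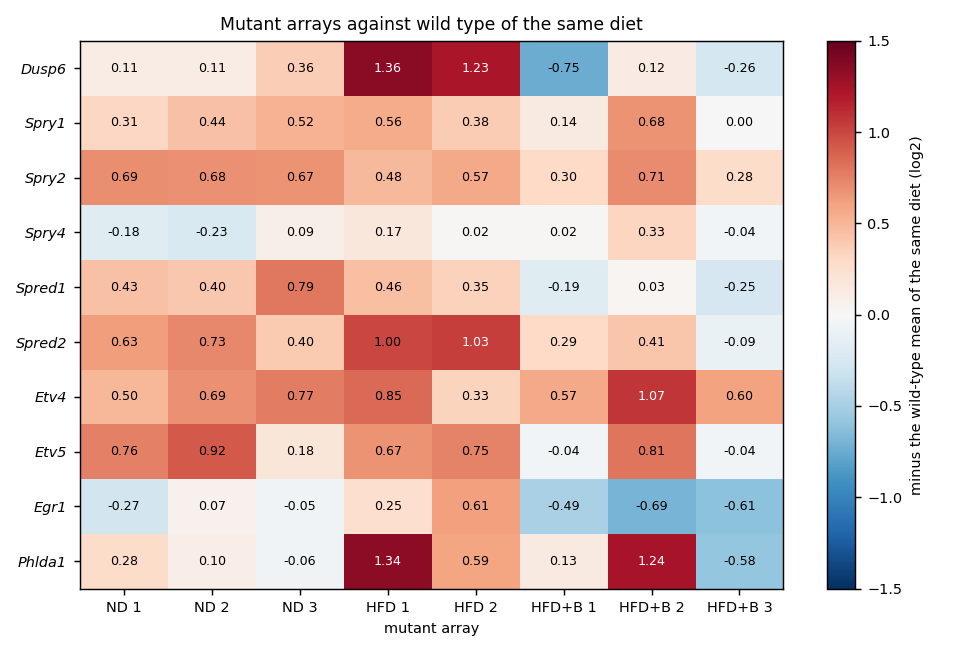
Level on each of the 8 mutant arrays (x axis) minus the wild-type mean of the same diet, in log2 units (colour and printed value), for the 10 genes (y axis), on normal diet (ND), high-fat diet (HFD) and high-fat diet with butyrate (HFD+B). The wild-type value with butyrate is 1 array; HFD+B array 2 has a median of 0.54, and HFD+B arrays 1 and 3 have medians of 0.07 and -0.07.

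Diet was compared within each genotype. In mutants 1 of 10 genes passed between high-fat and normal diet, Spred2, which was higher on high-fat diet by 0.68 ± 0.16 (1.60-fold, limma adjusted p = 0.016). Of all genes 17.7% passed in either direction and 7.67% as higher, so 1 of 10 is near the background. The count was 0 without mutant high-fat array 1 or 2 or mutant normal diet array 3, where 990, 1043 and 1522 of all genes passed. It was 2, with Spry2, without wild-type normal diet array 1 or 2 or mutant butyrate array 2. There 2576, 2579 and 2331 of all genes passed, against 2197 with every array. The dim Spred2 probe set was also higher on high-fat diet (0.59 ± 0.17, adjusted p = 0.0325). So was the dimmer Etv5 one (0.44 ± 0.11, adjusted p = 0.0176), while the dimmer Spry4 one (0.23 ± 0.10) did not pass (adjusted p = 0.15). Dim probe sets of Spry2 and Spred1 that also rose are given below, so the rise was not particular to Spred2. In wild type 0 of 10 passed by limma (11% of all genes did). An unadjusted p under 0.05 was found for 2, Dusp6 (-0.61 ± 0.23) and Spry2 (-0.60 ± 0.27), and for 26.9% of all genes. There the count past the threshold was 1 without wild-type normal diet array 1 (Spry2) and without mutant butyrate array 1 or 2 (Dusp6). Over all genes 1520, 1296 and 1522 passed in these fits, against 1368 with every array.

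Probe sets of a gene did not always agree on diet. The Spry2 probe set used here was lower in mutants on high-fat than on normal diet by -0.76 ± 0.25 (limma adjusted p = 0.0557), and the dimmer one, of mean 4.94, was higher by 0.89 ± 0.18 (adjusted p = 0.00605). The dimmest Spred1 probe set was higher by 0.93 ± 0.13 (adjusted p = 0.00119), where the 2 brighter ones gave 0.02 ± 0.16 and -0.04 ± 0.17. In wild type this dimmest Spred1 probe set was also higher, by 0.70 ± 0.14 (adjusted p = 0.0116). The dimmer Spry2 one was higher there by 0.61 ± 0.19 without passing (adjusted p = 0.0666). Dimmer probe sets of Spred2 (-0.02 ± 0.18), Etv5 (0.06 ± 0.12) and Spry4 (-0.21 ± 0.11) did not pass in wild type. Over the 3718 genes under the 30th percentile of level the median difference between high-fat and normal diet in mutants was 0.014. These were read from the brightest probe set of each gene, and the other probe sets of all genes were not summarised. For genotype in 9 arrays 5 of the 6 other probe sets had a mean difference above 0, and 1 of them passed.

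**Figure D5:**
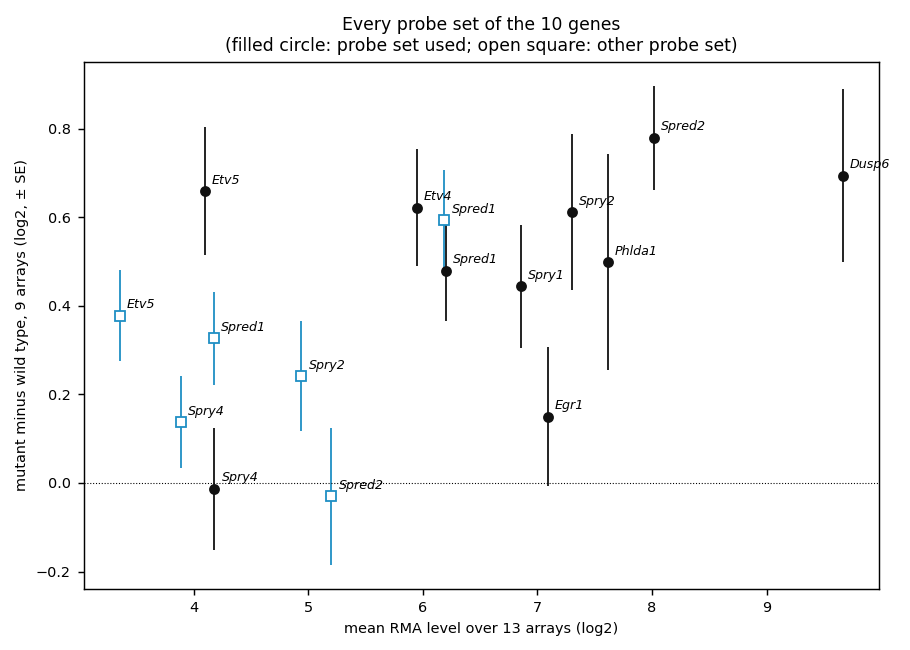
Difference between mutant and wild-type arrays in the 9 arrays without butyrate (y axis, log2, bars are SE) against the mean RMA level over 13 arrays (x axis, log2) for all 16 probe sets of the 10 genes. Filled circles are the probe sets used and open squares the 6 others; the dim Spred2 probe set lies at -0.03, the brighter one at 0.78.

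When butyrate was added to the high-fat diet, 3 of 10 genes fell in mutants: Phlda1, Spred2 and Spry1. Of all genes 21.7% passed in either direction and 8.78% as lower. Spred2 went from 8.80 and 8.83 to 8.003, 8.12 and 7.61, a difference of -0.90 ± 0.16 (limma adjusted p = 0.00328), with no overlap. Spry1 went from 7.39 and 7.20 to 6.37, 6.91 and 6.23, also without overlap (-0.79 ± 0.23, adjusted p = 0.029). The share of all genes without overlap between these groups was not counted. Phlda1 differed by -1.56 ± 0.44 (2.95-fold, adjusted p = 0.0277), with mutant butyrate array 2 at 7.85, close to the lower high-fat array at 8.06. Without mutant butyrate array 2 the count was 6, with Dusp6, Etv4 and Etv5 added, where 3041 of all genes passed, against 2685 with every array. Without mutant butyrate array 1 or 3, or mutant high-fat array 1 or 2, the count was 1, Spred2. There 1820, 2002, 1317 and 1456 of all genes passed. Other probe sets did not all follow. The dimmer Spred2 probe set had -0.43 ± 0.17 and did not pass (adjusted p = 0.0926). The dimmer Spry2 probe set fell by 0.83 on the log2 scale (adjusted p = 0.00718), where the one used here had a value of 0.45 ± 0.25. The dimmest Spred1 probe set (-0.82 ± 0.13), the dimmer Etv5 one (-0.59 ± 0.11) and the dimmer Spry4 one (-0.37 ± 0.10) also fell, with adjusted p of 0.00165, 0.00363 and 0.0252. This comparison and that of high-fat with normal diet share the mutant high-fat arrays, and in both the array numbers differ with the diet.

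Other genes of the pathway mostly did not pass. The lists share some genes, such as Dusp2, Hbegf and Ets2, so their counts are not of separate genes. Of 31 further ERK output genes 0 passed in 13 arrays and 2 rose in 9 arrays, where 2.24% of all genes rose. The list median in 9 arrays was 0.08 against 0.0121 over all genes. The 2 that rose were Tnfrsf12a, the receptor of the cytokine TWEAK (0.67 ± 0.09, limma adjusted p = 0.00473), and Emp1, an epithelial membrane protein (0.49 ± 0.08, adjusted p = 0.01). Tnfrsf12a was 6.94, 6.61, 6.97 and 6.92 on the 4 wild-type arrays and 7.56, 7.497, 7.55, 7.54 and 7.45 on the 5 mutant arrays without butyrate. With butyrate it was 6.25 in wild type and 6.39, 7.70 and 6.38 in mutants, so mutant array 2 was again the high one. Ccnd1, cyclin D1, had a value of -0.62 ± 0.17 and Hbegf, a ligand of the EGF receptor, of 0.42 ± 0.12, without passing (adjusted p = 0.0648 and 0.0726).

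Of 25 immediate early genes 0 passed in either model (median 0.07 in 9 arrays). The smallest p-values were those of Klf4 (0.41 ± 0.11), Srf (0.29 ± 0.08), Ier5 (-0.22 ± 0.08) and Atf3 (-0.40 ± 0.16). Of 10 measured MAP kinase phosphatases other than Dusp6, 0 passed in either model (median -0.07 in 9 arrays), with Dusp7 at -0.44 ± 0.15, Dusp9 at -0.29 ± 0.11, Dusp2 at -0.22 ± 0.14 and Dusp1 at 0.22 ± 0.18. Of 18 measured genes of the Ras to ERK cascade itself 0 passed (median 0.08), with Map2k2, which encodes the kinase MEK2, at 0.27 ± 0.08, Cbl at 0.40 ± 0.14, Map2k1 at 0.22 ± 0.09 and Rasa2 at 0.27 ± 0.12.

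In 9 arrays 296 of all 12393 genes fell and 2.24% rose. Of 21 ETS factors other than Etv4 and Etv5, 0 rose and 2 fell in 9 arrays (median 0.02), and 0 passed in 13. The 2 were Spi1, the factor PU.1 of macrophages and B cells (-0.75 ± 0.17, limma adjusted p = 0.0359), and Ets1, a factor of lymphocytes and endothelium (-0.54 ± 0.13, adjusted p = 0.0475), beside the falls of macrophage markers given above. Ets2 (0.17 ± 0.08) and Fli1 (-0.20 ± 0.12) did not pass. Of 23 receptors and ligands of the EGF and FGF families, with Kit, Met and Pdgfra, 0 rose and 2 fell in 9 arrays (median 0.04), and 0 passed in 13. These were Fgfr2, an epithelial FGF receptor (-0.55 ± 0.11, adjusted p = 0.0191), and Kit, the receptor of stem cell factor (-0.46 ± 0.11, adjusted p = 0.0389). Tgfa (0.33 ± 0.08) and Erbb3 (0.49 ± 0.13) did not pass (adjusted p = 0.0575 and 0.0636).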

How the data were processed

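The deposited values are on a log2 scale, made by the authors with Affymetrix Expression Console 1.1 and RMA, per the submitters' processing notes. As usually run, RMA corrects background, normalizes by quantiles and summarises probes. Quantile normalization sets all arrays to like distributions, so a shift shared by most genes would not show. No genome build for the probe sets was named in the labels. Of 22690 probe sets, 20380 had exactly 1 symbol in the platform annotation. Each of the 12393 genes was read from its brightest probe set by mean level. No 2 arrays shared more than 408 values to 3 decimals.

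All fits were made with limma 3.58.1 in R 4.3.3, by lmFit and by eBayes with trend by mean level. P-values were two-sided and adjusted over all genes by the Benjamini-Hochberg method, with a threshold of 0.05. Every adjusted p comes from limma. Genotype was fitted with diet as a term (9 residual degrees of freedom in 13 arrays, 6 in the 9 without butyrate), and 8 further comparisons were taken from 6 group means over all 13 arrays (7 residual degrees of freedom). Groups follow the labelled genotype and diet. The level of the mutated gene is not reported here. The procedure was tested on simulated data. All 10 members are named, and from each pathway list up to 4 genes with the smallest p in 9 arrays. For the members Spred1, Spred2, Etv4 and Etv5 the 3 genes of highest Pearson r are named, predicted and clone-named genes left out. Genes of the lists were matched by exact symbol. Members, lists, fits and alternatives were chosen with earlier results of these data known.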

Additional observations from a re-analysis of the deposited data

How the results depend on the processing

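Counts below are of the 10 genes past the threshold. For genotype in 13 arrays the count of 2 became 1 with the probe sets of a gene averaged or without an intensity trend (Etv4 in each), 0 with each diet weighted equally (5 of all genes passed, against 127), and 5 with mutant butyrate arrays 1 and 3 left out together (899 of all genes), a choice made with their values known. With the replicate block it stayed at 2, with Etv5 in place of Etv4. Leaving out each array gave 0 to 3. In 9 arrays the count of 4 became 2 with the replicate number as a block (Spred2 and Etv5), 3 with the mean of probe sets (Spred1, Etv4, Etv5, without Spred2), 5 with array weights (Spry1 added), and 1 to 3 with each array left out. The acinar pancreas mean as a covariate gave 3 genes in 13 arrays (Spry2, Spred2, Etv4) and 3 in 9 arrays (Spred2, Etv4, Etv5). Without dim genes 3 passed in 9 arrays, since Etv5 and Spry4 were left out. Leaving out each array gave 0 to 1 on normal diet, 0 to 2 on high-fat diet and 0 with butyrate. The high-fat count of 0 became 1 with array weights and 1 with the replicate block.

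Between high-fat and normal diet in mutants the count of 1 became 2 without dim genes, 2 with array weights, 2 with the pancreas covariate and 3 with the compared groups alone, and 0 to 2 with each array left out. In wild type the count of 0 became 1 with the pancreas covariate, and 0 to 1 with each array left out. For butyrate added in mutants the count of 3 became 5 with the mean of probe sets, 1 with the replicate block, 1 with the compared groups alone, and 1 to 6 with each array left out. Except where fewer arrays or genes entered, the cause was not tested.

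For single genes in the 2 genotype models, refits with 1 array left out kept direction and side of the threshold 162 times, lost the call 42 times, gained it 4 times and changed direction 12 times. The other alternatives did so 142, 12, 6 and 8 times. Every change of direction was in Spry4, Egr1 or the dim Spred2 probe set. In 13 arrays Egr1 became 0.0412 with array weights and 0.1593 with the replicate block, and ranged from -0.16 to 0.15 with each array left out. Spry4 became -0.0151 with the block and ranged from -0.0683 to 0.0804. In 9 arrays Spry4 became 0.0013 after quantile normalization, 0.0625 with the mean of probe sets, 0.049 with array weights and 0.14 on its other probe set, and ranged from -0.14 to 0.0725. The dim Spred2 probe set gave -0.0302.

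In the labels, same-numbered arrays share only a number. Deviations of same-numbered wild-type and mutant arrays from their group means correlated at -0.24 and -0.33 on normal diet and at 0.01 on high-fat diet. These values cannot decide whether the arrays are paired, since in a group of 2 arrays the deviations are equal and opposite. The block could not be fitted with the wild-type butyrate array, which has no number and was left out there. With butyrate no paired analysis was possible because of this. Arrays of the compared groups alone give no other fit for the comparison of butyrate with the other 2 diets, which uses all groups.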

Other observations

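For the 4 genes that passed in 9 arrays, the genes with the most similar level over the 13 arrays were listed among 8554 to 8555 genes above the 30th percentile of level, predicted and clone-named genes left out. Arrays share diet series and genotype, so these correlations are a description and carry no test. For Etv4 these were Klhdc3 (Pearson r = 0.91, Spearman rho = 0.91), Scmh1 (0.90 and 0.89) and Rras, a small GTPase (0.89 and 0.93). For Etv5 they were Pparg, a nuclear receptor of fat metabolism (0.90 and 0.82), Rflnb (0.89 and 0.71) and Nkiras2 (0.88 and 0.90). For Spred2 they were Tbc1d22a (0.88 and 0.88), Kcmf1 (0.88 and 0.91) and Pcx, pyruvate carboxylase (0.88 and 0.76). For Spred1 they were Slc12a8 (0.86 and 0.88), Synj2 (0.86 and 0.87) and Wdr33 (0.86 and 0.85). No gene was named for more than 1 of the 4 members.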
